A study of Mus musculus with 23 samples.

Results

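The nuclear genes of oxidative phosphorylation were measured by RNA-seq in mouse embryonic stem cells (ESCs) in which the DNA-binding domain of KDM2B can be removed. They were chosen by name, as every gene in the deposited tables whose symbol starts with Nduf, Uqcr or Atp5, or with Cox followed by a digit from 4 to 8, and they number 88 of 23369 gene names. The name rule uses no measured value. By function they comprise 36 subunits of complex I (7 catalytic core and 29 supernumerary), 7 assembly factors of complex I, 8 subunits of complex III, 19 genes of complex IV (11 used in most tissues and 8 isoforms with a restricted expression), 15 subunits of the ATP synthase, and 3 genes that share the name pattern and encode no subunit. Ndufa4 and Ndufa4l2 were counted with complex IV, where their products are found. No gene encoded by mitochondrial DNA is listed in the tables, and complex II was described as a companion list.

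All 6 RNA-seq samples came from the MS12 Kdm2b fl/fl ESC line at passage 10 to 20. Both Kdm2b alleles carry loxP sites around sequence coding for the ZF-CxxC domain, with which KDM2B binds unmethylated CpG dinucleotides, and the cells stably express a tamoxifen-inducible Cre recombinase. The cells were grown on mitomycin C-inactivated mouse embryonic fibroblast feeders with LIF, left overnight without feeders, and then kept without drug (untreated, n = 3) or with 4-hydroxytamoxifen for 72 hr (tamoxifen, n = 3). The labels state a dose of 800 nM, whereas 800 µM is stated in the series text. Every sample is of this 1 line, and no line without the floxed allele or without Cre was treated, so the deletion, the drug and the Cre activity cannot be told apart. Groups follow the labels of the samples. Read by file name instead, untreated and tamoxifen would be exchanged in all 6 samples, and every difference below would change its sign.

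Oxidative phosphorylation takes place at the inner mitochondrial membrane. Complex I oxidises NADH and complex III passes the electrons on to cytochrome c, from which complex IV reduces oxygen, and the proton gradient made by these steps drives the ATP synthase. Most subunits are encoded in the nucleus, some in families with isoforms used in muscle, lung, testis or low oxygen. ESCs in culture also derive much of their ATP from glycolysis.

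The 6 samples did not contribute alike. FPKM is the number of fragments scaled by transcript length and by the number of mapped fragments, and loci under 300 bp held 23.9% and 25.6% of all FPKM in the replicate 1 samples (untreated and tamoxifen) but 42.3% to 67.7% in the other 4. Feeder fibroblast markers, 10 genes, summed to 53.0 and 87.3 FPKM in the replicate 1 samples and to 110 to 148 FPKM in the others, with 9 of the 10 tested and Lum at 0 to 0.20 FPKM. The 8 ESC markers were present in all samples and summed to 3427 and 4943 FPKM in the replicate 1 samples and to 2102 to 2781 FPKM in the others. Much of that sum was Dppa5a (2221 and 3534 FPKM in replicate 1). Both replicate 1 samples lay above the other 4 in 3 of the 8 ESC markers, against 24.7% of all tested genes. Among tested genes with a mean of at least 50 FPKM the share was 47.7%. Kdm2b itself was at 27.0, 21.5 and 27.7 FPKM in untreated and 19.9, 21.9 and 25.04 FPKM in tamoxifen samples, a value over the whole gene that does not report the removed exon. The tables hold no fragment totals, and no interval that needs counts is given.

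Most of the respiratory chain was expressed at a high level. Of the 88 genes, 84 reached 0.5 FPKM in at least 3 samples and were tested, among 12997 genes in all. Averaged over the 6 samples, Cox4i1, the common isoform of a complex IV subunit, was at 1004 FPKM, and Atp5b, the catalytic beta subunit of the ATP synthase, was at 952 FPKM. Cox4i1 was read at 1199, 1183 and 603 FPKM in untreated replicates 1 to 3 and at 1461, 986 and 592 FPKM in tamoxifen replicates 1 to 3. Atp5b was read at 1124, 646 and 894 FPKM in untreated and at 1243, 846 and 958 FPKM in tamoxifen samples. These ranges overlapped, so the order of the 2 genes did not exceed the spread over samples. The highest gene of complex III was Uqcr10, a small supernumerary subunit, at 346 FPKM, and the highest of complex I was Ndufa7, another supernumerary subunit, at 301 FPKM. The complex I assembly factors, which help to build the complex without staying in it, lay lower, from 4.48 FPKM for Ndufaf5 to 49.3 FPKM for Ndufaf2. The lowest means of the subunit groups were 16.8 FPKM for Ndufa11 in complex I, 81.0 FPKM for Uqcrb in complex III and 59.4 FPKM for Atp5l in the ATP synthase.

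**Figure D1:**
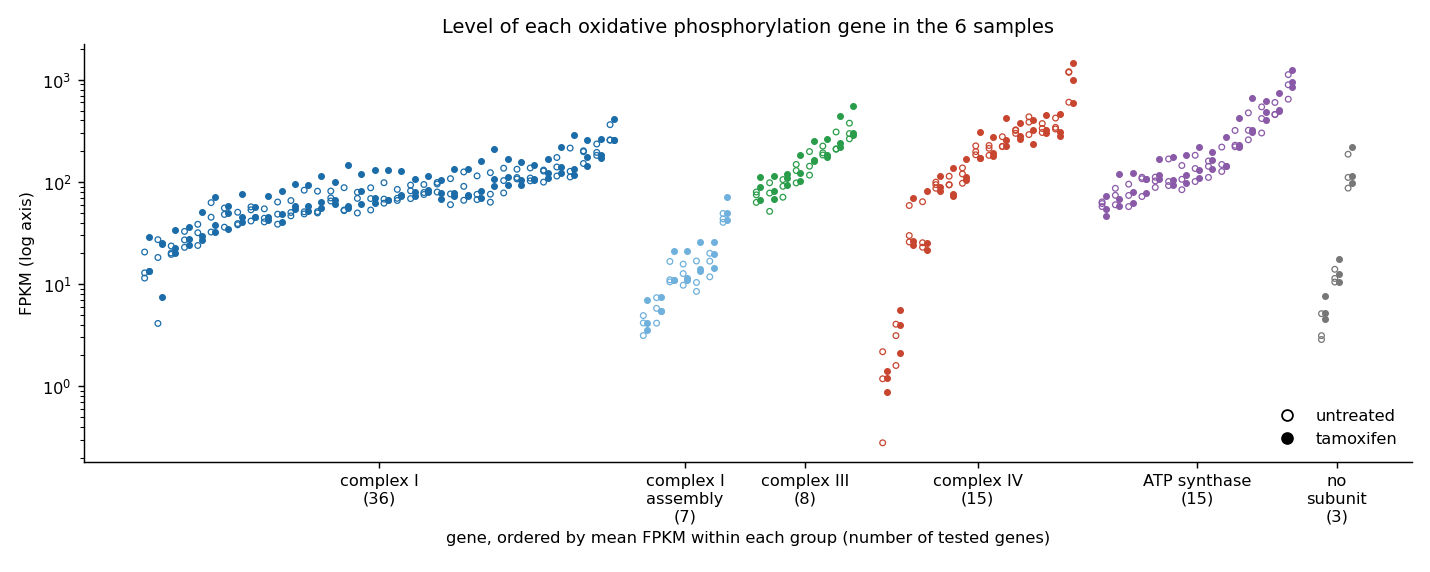
FPKM of the 84 tested genes in the 3 untreated (open circles) and 3 tamoxifen samples (filled circles), on a log axis, with genes ordered by mean FPKM within each group. Of the 84 genes, 61 have a mean of at least 50 FPKM. The assembly factors lie below that level, as do some subunits and some complex IV isoforms, and open and filled circles of a gene overlap throughout.

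The deposited levels of these genes carry an uncertainty of their own. The tables give a confidence interval beside each FPKM, and for 59 to 62 of the 84 or 85 oxidative phosphorylation genes above 0 in a sample the FPKM lay above the upper bound of its own interval. Among all rows above 0 the FPKM lay outside the interval in 11.1% to 13.5%. The ratio of FPKM to the midpoint of the interval had a median of 1.32 over the 84 tested genes, 1.01 over all tested genes and 1.06 over the length decile of tested genes with the shortest transcripts, in which the 49 oxidative phosphorylation genes had a median of 1.503. It reached 2.78 for Atp5k and 2.27 for Ndufa3, both small subunits, and was 1.42 for Cox4i1, 1.12 for Atp5b and 1.00 for Ndufv3. The 2 columns thus order the levels of genes differently. In the median over genes the ratio was alike in both groups (tamoxifen over untreated 1.00). With interval midpoints in place of FPKM the median log2 fold change of the 84 genes was again 0.15. Single genes could differ between samples, with ratios of 1.02 to 1.65 for Ndufa7 and 1.00 to 1.33 for Atp5j. In replicate 2 Ndufa7 was at 258 FPKM in untreated and 256 FPKM in tamoxifen, with intervals of 238 to 269 and 153 to 175. The treatment difference of such a gene depends on the column.

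Between untreated and tamoxifen cells, no oxidative phosphorylation gene passed the test when the groups were compared as such. On log2(FPKM + 0.1), limma called 0 of the 84 genes higher and 0 lower at an adjusted p of 0.05, against 0.0231% of all tested genes called higher and 0.00769% called lower. The adjusted p-values of the 84 genes lay between 0.999 and 1.000, and 0 had an unadjusted p under 0.05, against 4.79% of all tested genes. For 0 of the 84 did the 3 tamoxifen samples all lie above or all below the 3 untreated samples, against 3.09% of all tested genes all above and 5.4% all below. The median standard error was 0.30 on the log2 scale, and 62 of the 84 genes had a 95% interval that lay within a 2-fold change in either direction.

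Samples of the same replicate number deviated together, and with the number as a block limma called 3 of the 84 genes higher and 0 lower, against 4.33% of all tested genes higher and 6.06% lower. The called share of the 84 was not above that background. The median standard error was then 0.11, 83 of the 84 intervals lay within a 2-fold change (all but that of Cox4i2, -0.55 to 1.09), and 75 lay within a 1.5-fold change. An unadjusted p under 0.05 was reached by 18 of the 84, all with higher values in tamoxifen. Over all tested genes 29.8% reached it in either direction, a larger share than among the 84. The share of all tested genes that reached it with higher values was not computed.

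Ndufv3, a small supernumerary subunit of the NADH-oxidising module of complex I (chr17:31657060-31668270 in mm9), was the first of the 3. It was at 123.2, 63.3 and 75.9 FPKM in untreated replicates 1 to 3 and at 208, 90.6 and 107 FPKM in tamoxifen replicates 1 to 3. Each tamoxifen sample lay above the untreated sample of its number, but untreated replicate 1 lay above tamoxifen replicates 2 and 3, so the groups overlapped. The means were 87.5 ± 31.6 and 135 ± 63.8 FPKM (SD, n = 3 each), and the log2 fold change was 0.59 (standard error 0.10 with the block, limma adjusted p = 0.0135, and 0.999 without it).

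Ndufaf6, an assembly factor of complex I (chr4:10978195-11003352), was at 16.8, 8.47 and 10.4 FPKM in untreated and at 25.9, 13.3 and 14.2 FPKM in tamoxifen samples. Again each tamoxifen sample was the higher of its number, and again untreated replicate 1 lay above tamoxifen replicates 2 and 3. Its log2 fold change was 0.57 (standard error 0.10 with the block, limma adjusted p = 0.0166, and 0.999 without it). Atp5s (chr12:70825949-70845645), which encodes a factor associated with the ATP synthase and no subunit, was at 5.13, 2.86 and 3.13 FPKM in untreated and at 7.72, 4.52 and 5.27 FPKM in tamoxifen samples. Its log2 fold change of 0.65 was the highest of the 84 (standard error 0.12 with the block, limma adjusted p = 0.0190, and 0.999 without it), with the untreated replicate 1 sample above tamoxifen replicate 2. All 3 calls were lost when replicate 2 was left out (adjusted p = 0.0924 for Ndufv3, 0.132 for Ndufaf6 and 0.134 for Atp5s), and that of Atp5s also without replicate 3 (adjusted p = 0.0767). Without replicate 1 all 3 were called.

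The promoters of Ndufv3 and Atp5s are shown because KDM2B binds CpG-rich DNA. For Ndufaf6, the other called gene, no RefSeq promoter was found. Beside them stand that of Atp5b, a highly expressed gene that was not called, and those of Cox6b2, Cox7a1 and Cox8b, isoforms of restricted expression. Each is the stretch of 120 bases before the annotated start, from RefSeq on GRCm38.p6, written 5′ to 3′ on the strand of the gene, with CpG dinucleotides in capitals. The positions are chr17:31519995-31520114 on the plus strand for Ndufv3, chr12:69724825-69724944 on the plus strand for Atp5s, chr10:128083187-128083306 on the plus strand for Atp5b, chr7:4753095-4753214 on the minus strand for Cox6b2, chr7:30184051-30184170 on the plus strand for Cox7a1 and chr7:140900447-140900566 on the minus strand for Cox8b.
Ndufv3: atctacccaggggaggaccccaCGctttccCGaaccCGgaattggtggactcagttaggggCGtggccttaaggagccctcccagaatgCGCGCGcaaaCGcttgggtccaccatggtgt
Atp5s: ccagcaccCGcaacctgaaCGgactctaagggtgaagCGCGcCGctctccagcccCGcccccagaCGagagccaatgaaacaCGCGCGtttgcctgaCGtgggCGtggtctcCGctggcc
Atp5b: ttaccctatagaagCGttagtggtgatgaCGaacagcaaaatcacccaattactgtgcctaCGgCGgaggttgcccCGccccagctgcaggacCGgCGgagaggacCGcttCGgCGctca
Cox6b2: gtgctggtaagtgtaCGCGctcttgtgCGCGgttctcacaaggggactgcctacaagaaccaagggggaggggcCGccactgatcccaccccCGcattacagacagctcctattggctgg
Cox7a1: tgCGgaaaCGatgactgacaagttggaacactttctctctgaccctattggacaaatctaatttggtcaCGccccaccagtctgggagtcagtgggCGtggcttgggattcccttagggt
Cox8b: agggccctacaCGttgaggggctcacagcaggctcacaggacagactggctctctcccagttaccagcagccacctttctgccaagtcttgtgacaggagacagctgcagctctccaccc
These stretches hold 8 CpG in Ndufv3, 13 in Atp5s, 10 in Atp5b, 6 in Cox6b2, 4 in Cox7a1 and 1 in Cox8b. RefSeq promoters of 300 bases (250 before the start and 50 after it) were found for 73 of the 88 genes, 79 promoters in all. Of these, 63.3% had a CpG frequency at or above 0.6 of that expected from base composition, with a GC content at or above 55%, against 30.3% of 32851 promoters of all genes. Of the 4 promoters of restricted complex IV isoforms, 0 met this definition, and Atp5b fell below it by its GC content of 53.7%. On either strand, GCGCATGC, which matches sites of NRF1, stood in 13.9% of the 79 and 2.71% of all promoters. CCGGAAG, which matches sites of ETS factors such as GABPA, stood in 19.0% and 8.86%, and AAGATGGC, which matches sites of YY1, stood in 15.2% and 2.75%. GCGCATGC and CCGGAAG themselves hold CpG, and no shares over promoters of like CpG content were computed. The promoters of all genes were not limited to tested genes. No shares over tested genes were computed, for CpG content or for motifs. A match describes the letters only, and no occupancy of KDM2B was analysed here.

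In complex I, 30 of the 36 subunit genes had a positive and 6 a negative log2 fold change, with a median of 0.15. Over all tested genes 6140 of 12997 were positive, with a median of -0.02. Among the 1635 tested genes with a mean of at least 50 FPKM 1201 were positive, with a median of 0.12, close to that of complex I. The medians of the 36 genes within replicates 1, 2 and 3 were 0.38, 0.07 and 0.04. The 7 core genes, which carry the flavin, the iron-sulphur clusters and the quinone site, had a median of 0.15, as did the 29 supernumerary genes. Ndufs1, the largest iron-sulphur subunit, was at 53.3, 41.4 and 57.0 FPKM in untreated and at 45.0, 45.4 and 56.5 FPKM in tamoxifen samples, with no common direction over the numbers. Ndufv1, which binds NADH and flavin, was at 108, 59.9 and 76.3 FPKM in untreated and at 133, 73.1 and 77.2 FPKM in tamoxifen samples. Its tamoxifen sample was the higher in each number, with a log2 fold change of 0.20 (limma adjusted p = 0.210 with the block).

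Ndufs5 was chosen after its values were seen, for its spread. This supernumerary complex I gene was at 18.2, 27.2 and 4.12 FPKM in untreated and at 25.3, 24.5 and 7.50 FPKM in tamoxifen samples, lowest in both replicate 3 samples. Its locus overlaps that of BC002163, which was at 66.0 to 136 FPKM, and fragments may be divided between them, so its level is uncertain. The sum of both was 118, 98.1 and 105 FPKM in untreated and 161, 90.4 and 106 FPKM in tamoxifen samples. In all, 11 of the 88 loci overlap the locus of another gene name, among them Atp5b, Uqcrc2 and Ndufs1.

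All 7 assembly factors of complex I had a positive log2 fold change (median 0.22), from 0.11 for Ndufaf4 to 0.57 for Ndufaf6, the only one called. Over all tested genes 6140 of 12997 were positive. Ndufaf1 was at 20.0, 11.8 and 16.8 FPKM in untreated and at 25.6, 14.3 and 19.8 FPKM in tamoxifen samples (log2 fold change 0.29, limma adjusted p = 0.0937 with the block). Ndufaf2 was at 49.1, 40.2 and 43.4 FPKM in untreated and at 70.8, 42.1 and 49.9 FPKM in tamoxifen samples. Both were higher in tamoxifen in each number, yet their groups overlapped. The assembly factors without the Nduf name comprised 6 genes, of which 2 were called higher with the block (4.33% of all tested genes were) and 0 without it. Nubpl, which delivers iron-sulphur clusters to complex I, had a log2 fold change of 0.50 (limma adjusted p = 0.0261 with the block), and Ecsit, of the complex that builds the membrane arm, had 0.40 (limma adjusted p = 0.0443 with the block). Atp5sl, whose product is also implicated in complex I assembly despite its name, was at 14.0, 10.5 and 11.3 FPKM in untreated and at 17.8, 12.5 and 10.4 FPKM in tamoxifen samples.

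All 8 complex III genes had a positive log2 fold change, with a median of 0.24, and 0 were called in either fit. Of the 1635 tested genes with a mean of at least 50 FPKM, 1201 were positive, with a median of 0.12. Uqcrc1, a core protein on the matrix side, was at 198, 117 and 143 FPKM in untreated and at 253, 159 and 164 FPKM in tamoxifen samples (log2 fold change 0.33, limma adjusted p = 0.0656 with the block). Uqcrc2, the other core protein, was at 105, 70.9 and 90.6 FPKM in untreated and at 120, 92.7 and 110 FPKM in tamoxifen samples (log2 fold change 0.28, limma adjusted p = 0.0902 with the block). Uqcrfs1, the Rieske iron-sulphur protein, was at 98.1, 51.5 and 77.8 FPKM in untreated and at 114, 67.5 and 81.7 FPKM in tamoxifen samples. All 3 were the higher in tamoxifen in each number, and none separated the groups. Cyc1, the cytochrome c1 of the complex, and Cycs, the carrier to complex IV, had log2 fold changes of 0.18 and 0.21, and neither was called. Cox7a2l, whose product links complexes III and IV and which is counted among the genes that encode no subunit, was at 187, 87.0 and 111 FPKM in untreated and at 221, 98.3 and 114 FPKM in tamoxifen samples.

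Complex IV had the lowest median log2 fold change of the complexes. Its 15 tested genes had a median log2 fold change of 0.03, which was 0.14 under scaling to TPM. The sign turned to -0.05 under scaling to TPM without loci under 300 bp and to -0.07 with quantile normalisation. It turned to -0.01 with length-bin centring and to -0.07 with level-bin centring. The settings moved other genes too: over all tested genes the medians were 0.08, -0.11, 0.01, 0.03 and -0.01 in the same order, TPM first. The 11 common genes had medians of 0.27, -0.15 and -0.09 within replicates 1, 2 and 3. All 11 were higher in tamoxifen in replicate 1, 1 of 11 in replicate 2 and 2 of 11 in replicate 3. Of the 1635 tested genes with a mean of at least 50 FPKM, 1145, 1198 and 1065 were higher in replicates 1, 2 and 3. Cox5a, a subunit on the matrix side, was the only gene of the complex with the higher value in tamoxifen in each number, at 277, 223 and 222 FPKM in untreated and at 424, 260 and 226 FPKM in tamoxifen samples. Cox5b, a zinc-binding subunit, was at 114, 93.6 and 93.9 FPKM in untreated and at 137, 76.8 and 73.3 FPKM in tamoxifen samples. It was higher in tamoxifen in replicate 1 and lower in the others. The same order was seen in single genes of other complexes, among them Ndufa1, Ndufb3, Ndufb6, Uqcrh and Atp5l, so it was not particular to complex IV. Cox6a1, chosen after its values were seen, had the lowest log2 fold change of the 84, -0.22 (limma adjusted p = 0.254 with the block), at 385, 434 and 291 FPKM in untreated and 406, 322 and 234 FPKM in tamoxifen samples. No complex IV gene was called. In the shortest length decile, the 14 complex IV genes had medians of 0.28, -0.12 and -0.07 within replicates 1, 2 and 3, the 35 other oxidative phosphorylation genes had 0.38, 0.07 and 0.05, and all 1198 tested genes had 0.22, 0.11 and 0.03. The difference between the complexes was not tested, since genes are no replicates.

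**Figure D2:**
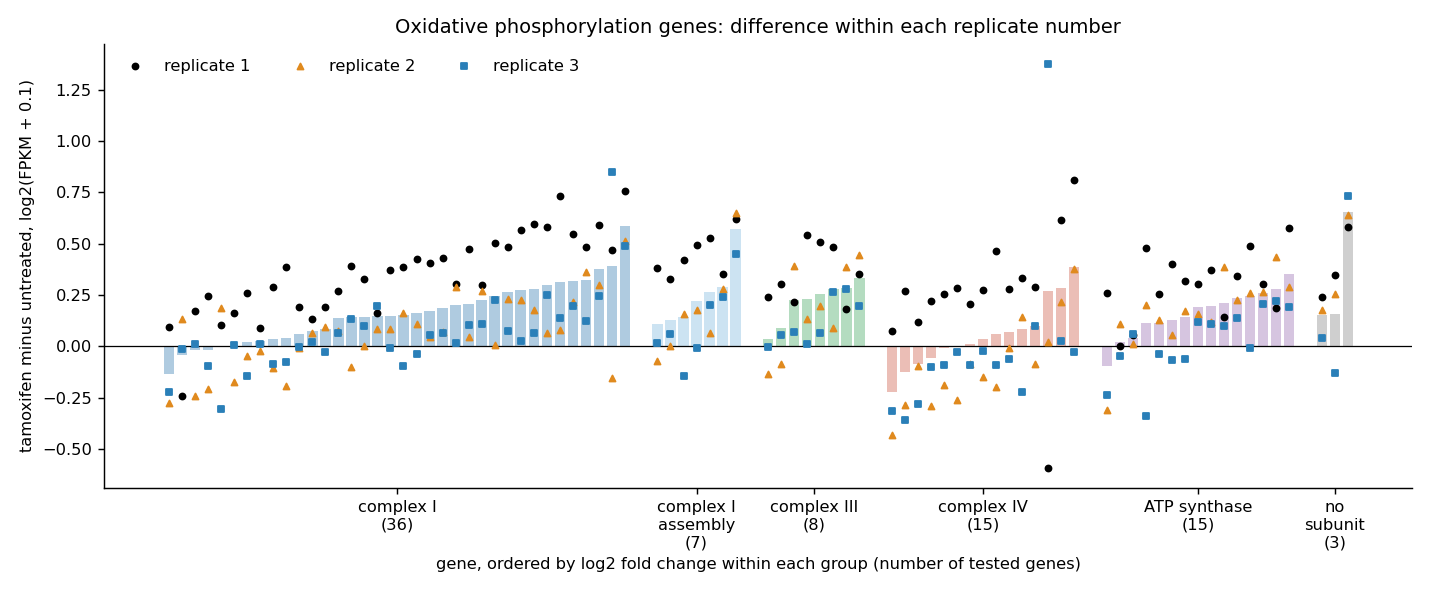
Log2 difference of FPKM + 0.1 between tamoxifen and untreated samples within replicates 1 (circles), 2 (triangles) and 3 (squares) for the 84 tested genes, with bars for the log2 fold change. Circles lie above 0 for 82 of the 84 genes, triangles for 58 and squares for 49. Over all 12997 tested genes (not drawn) the difference was above 0 in 5652, 7114 and 6189. Among the 1635 with a mean of at least 50 FPKM it was above 0 in 1145, 1198 and 1065. In complex IV most triangles and squares lie below 0 in the FPKM as deposited.

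Of the 15 ATP synthase genes, 14 had a positive log2 fold change, with a median of 0.19, and 0 were called in either fit. Of the 1635 tested genes with a mean of at least 50 FPKM, 1201 were positive, with a median of 0.12. The 5 genes of the F1 head, where ATP is made, had a median of 0.25, and the 10 genes of the membrane part and stalk had 0.12. Atp5a1, the alpha subunit, was at 543, 301 and 418 FPKM in untreated and at 618, 408 and 486 FPKM in tamoxifen samples (log2 fold change 0.28, limma adjusted p = 0.118 with the block). Atp5c1, the central gamma subunit, was at 160, 111 and 142 FPKM in untreated and at 198, 133 and 164 FPKM in tamoxifen samples (log2 fold change 0.26, limma adjusted p = 0.105 with the block). As with Atp5b, each tamoxifen sample was the higher of its number, and the groups overlapped. Atp5l, a small membrane subunit, was the 1 gene of the enzyme with a negative value (-0.10), at 61.4, 57.4 and 63.8 FPKM in untreated and at 73.6, 46.3 and 54.0 FPKM in tamoxifen samples.

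Subunit c, of which the rotor ring is made, is encoded by 3 genes whose products are the same after import. Atp5g1 was at 111, 88.3 and 102 FPKM in untreated and at 166, 108 and 117 FPKM in tamoxifen samples (log2 fold change 0.35, limma adjusted p = 0.0725 with the block). Atp5g2 was at 168, 92.1 and 101 FPKM in untreated and at 174, 92.9 and 105 FPKM in tamoxifen samples. Atp5g3 was the most abundant, at 600, 457 and 458 FPKM in untreated and at 741, 509 and 498 FPKM in tamoxifen samples. Within the sum of the 3, Atp5g1 held 14.0% ± 1.39 in untreated and 15.6% ± 0.543 in tamoxifen samples, Atp5g2 held 16.3% ± 2.47 and 14.6% ± 1.51, and Atp5g3 held 69.7% ± 1.76 and 69.8% ± 1.68 (SD, n = 3 each). The exact two-sided permutation p was 0.3, 0.5 and 0.9, in a design of 3 against 3 that cannot go below 0.1, so these tests could not have passed 0.05. Within numbers the Atp5g1 share was the higher and the Atp5g2 share the lower in tamoxifen in 3 of 3 (by 0.767 to 2.69 percentage points for Atp5g1, exact two-sided sign-flip permutation p = 0.25 for each, the smallest possible). From interval midpoints Atp5g1 held 18.7% and 20.8%, Atp5g2 15.4% and 13.7%, and Atp5g3 65.9% and 65.6%.

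Of the 8 complex IV isoforms of restricted expression, 2 were present at sizeable levels. Cox6b2, known from testis, was at 64.0, 22.9 and 25.4 FPKM in untreated and at 80.7, 25.4 and 21.7 FPKM in tamoxifen samples. Cox7a1, known from heart and skeletal muscle, was at 58.8, 29.8 and 25.8 FPKM in untreated and at 70.2, 26.2 and 24.3 FPKM in tamoxifen samples. Both were highest in the replicate 1 samples of either group, and neither was called (limma adjusted p = 0.668 and 0.974 with the block, where the 95% intervals of the log2 fold change were -0.20 to 0.37 and -0.27 to 0.25). Cox6b2 made up 14.7%, 7.004% and 7.07% of the summed FPKM of Cox6b1 and Cox6b2 in untreated samples and 15.1%, 7.73% and 6.36% in tamoxifen samples. Cox7a1 made up 20.5%, 12.3% and 12.4% of the sum of Cox7a1 and Cox7a2 in untreated and 20.3%, 11.97% and 11.9% in tamoxifen samples. In both pairs the replicate 1 samples thus held the larger share of the restricted isoform, with and without tamoxifen. Both shares depend on the column used. The ratio of FPKM to interval midpoint was 1.00 for Cox6b2 and 1.65 for its partner Cox6b1, and from midpoints Cox6b2 made up 21.8%, 11.002% and 11.3% in untreated and 22.3%, 12.1% and 10.5% in tamoxifen samples. It was 2.03 for Cox7a1 and 1.35 for Cox7a2, and from midpoints Cox7a1 made up 14.7%, 8.57% and 8.60% in untreated and 14.4%, 8.44% and 8.10% in tamoxifen samples. Replicate 1 held the larger share in either column.

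The remaining 6 restricted isoforms were low or listed at 0. Cox7b2 was at 3.13, 1.59 and 4.04 FPKM in untreated and at 5.55, 2.098 and 3.97 FPKM in tamoxifen samples. Cox4i2, known from lung and from oxygen sensing, was at 2.18, 1.18 and 0.279 FPKM in untreated and at 1.41, 1.203 and 0.882 FPKM in tamoxifen samples, with no common direction. Cox8c lay between 0 and 0.503 FPKM and was not tested. Cox6a2 and Cox8b, the muscle isoforms, and Ndufa4l2, a gene induced in low oxygen, were listed at 0 in all 6 samples. In tables without counts a 0 can be a failed estimate. The locus of Cox6a2 overlaps that of Itgad, and the locus of Ndufa4l2 overlaps that of Shmt2, which was at 55.6 to 83.5 FPKM.

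**Figure D3:**
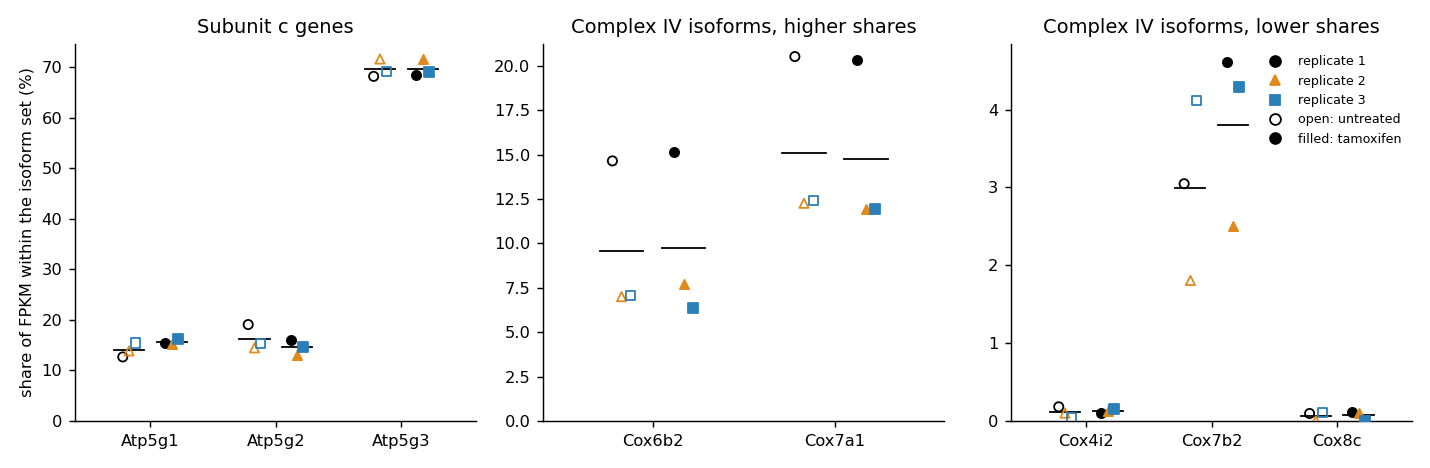
Share of FPKM (%) of each subunit c gene in the sum of the 3 (left) and of restricted complex IV isoforms in the sum with their common partner (middle and right), with untreated (open) and tamoxifen samples (filled) by replicate and a line at the mean. Cox6b2 and Cox7a1 stand apart in replicate 1 in both groups, while groups overlap in every set.

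The replicate number went with larger differences than the treatment. Both replicate 1 samples lay above the other 4 in 67 of the 84 genes (79.8%), against 24.7% of all tested genes and 47.7% of the 1635 tested genes with a mean of at least 50 FPKM. The mean of the replicate 1 samples exceeded that of the others by a median of 0.60 on the log2 scale. Tamoxifen replicate 1 was the highest of the 6 samples in 78 of the 84 genes. The share of all tested genes for which this held was not computed. In 1 gene, the complex I assembly factor Ndufaf4, both replicate 1 samples lay below the other 4, against 2574 of all 12997 tested genes. The difference was 1.59 for Cox6b2, 1.28 for Cox7a1 and 1.05 for Ndufs6, a supernumerary subunit of complex I. The 88 genes summed to 13872, 10270 and 10283 FPKM in untreated and to 17207, 10547 and 10434 FPKM in tamoxifen samples. As a share of the FPKM outside loci under 300 bp, they made up 3.32%, 3.04% and 2.82% in untreated and 3.72%, 2.96% and 2.79% in tamoxifen samples, so replicate 1 was still the highest but by less. Both replicate 1 samples lay below the other 4 in 6 of the 9 tested feeder markers and above them in 0. They lay above the other 4 in 3 of the 8 ESC markers and below them in 0. Over all tested genes they lay below in 2574 of 12997 and above in 24.7%. Among tested genes with a mean of at least 50 FPKM they lay above in 47.7%. The share in loci under 300 bp was lower in the replicate 1 samples. The part of each in these differences was not tested, and in bulk RNA fewer cells of a type and less RNA per cell cannot be told apart.

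**Figure D4:**
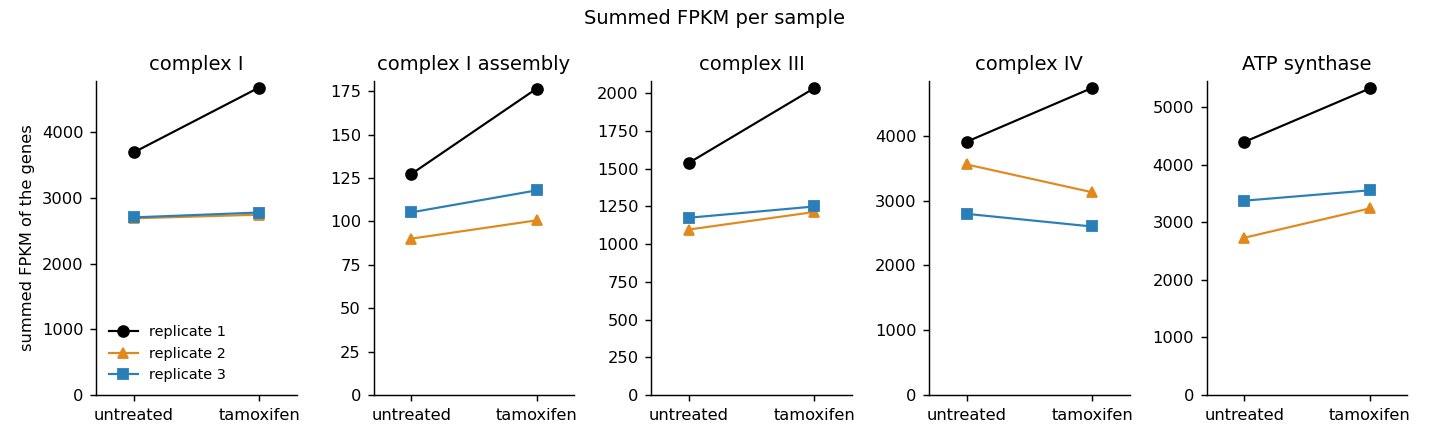
Summed FPKM of the genes of each group in every sample, with lines joining the untreated and tamoxifen samples of a replicate number. Replicate 1 lies highest in every panel, and in complex IV the lines of replicates 2 and 3 slope down in the FPKM as deposited, while the other lines slope up.

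Within replicate numbers, more of the genes were higher than lower in tamoxifen. It was the higher in all 3 numbers in 40 of the 84 genes (47.6%) and the lower in all 3 in 0, against 24.8% and 28.2% of all tested genes. Among the 1635 tested genes with a mean of at least 50 FPKM the shares were 45.9% and 10.5%, close to the first share of the 84. The medians of the 84 genes were 0.33, 0.09 and 0.02 within replicates 1, 2 and 3, against -0.07, 0.04 and -0.02 over all tested genes. For the 61 oxidative phosphorylation genes with a mean of at least 50 FPKM they were 0.30, 0.09 and 0.03. The 1635 tested genes at that level had 0.17, 0.17 and 0.07, so the 61 lay above them in replicate 1 and below them in replicates 2 and 3. Over the 84 genes, the median log2 fold change of 0.15 was -0.10 without tamoxifen replicate 1 and 0.05 without untreated replicate 2. It was 0.34 without untreated replicate 1 and 0.31 without tamoxifen replicate 2. Without tamoxifen replicate 1 the sign also turned for complex I (-0.10), complex III (-0.02) and the ATP synthase (-0.07), and not for the assembly factors (0.06). Without both replicate 1 samples the median of the 84 genes was 0.06.

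Transcript length and level went with the same differences over all genes. Over deciles of tested genes by annotated transcript length, the median log2 fold change ran from 0.12 in the shortest decile (up to 840 bases) to -0.19 in the longest, and the replicate 1 difference from 0.43 to -0.46. The shortest decile held 49 of the oxidative phosphorylation genes, whose median log2 fold change of 0.12 equalled that of all genes in that decile, and whose replicate 1 difference was 0.57. In the decile with the highest mean FPKM, which held 59 of the genes, their median was 0.14 and that of all genes 0.14. In the next deciles of length the values of the oxidative phosphorylation genes were 0.16 (14 genes) and 0.25 (10 genes), against 0.11 and 0.08 for all genes. Neither length nor level was varied in the experiment, and their part in the differences was not tested.

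**Figure D5:**
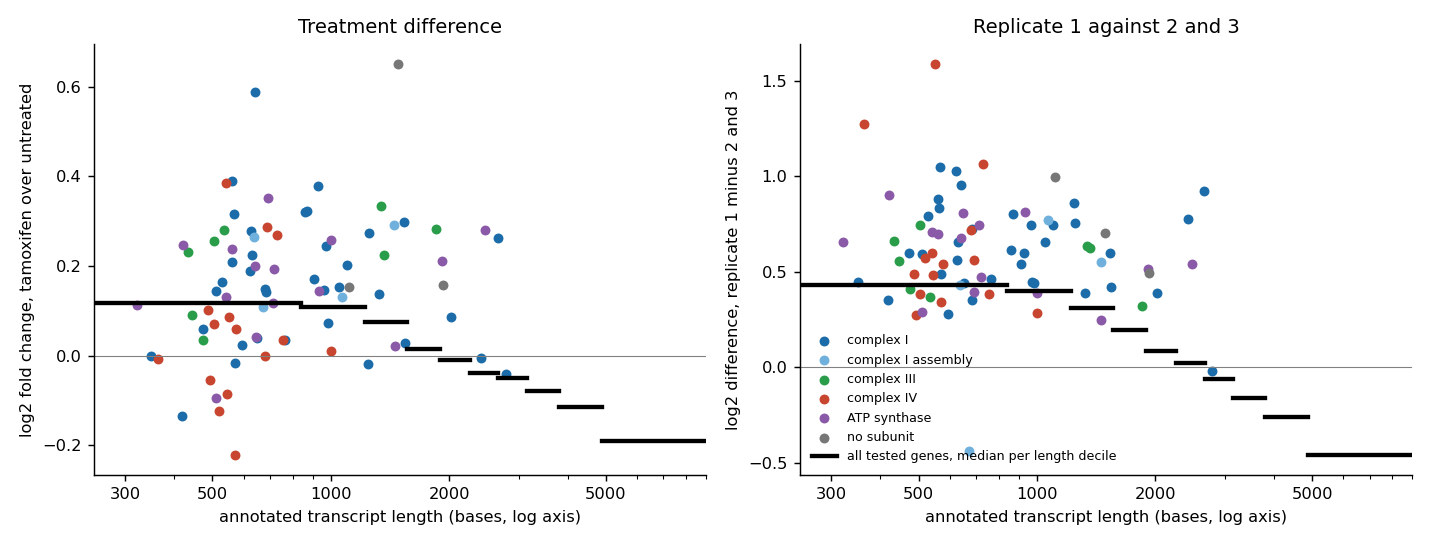
Log2 fold change (left) and log2 difference of replicate 1 from replicates 2 and 3 (right) against annotated transcript length (log axis) for the oxidative phosphorylation genes, coloured by complex, with black lines for the median of all tested genes in each length decile. Both sets of lines descend with length, and most oxidative phosphorylation genes lie among the short transcripts.

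In the companion lists of other genes of the pathway, 49 were tested. Without the block 0 were called, and with it 4 were called higher (8.16%, against 4.33% of all tested genes) and 0 lower, 2 of them the assembly factors Nubpl and Ecsit. With the block, complex II had 0 of 4 called (median log2 fold change 0.05), cytochromes c and c1 0 of 2 (0.20), complex IV assembly 0 of 12 tested (0.08), complex III assembly 0 of 2 tested (0.15) and ATP synthase assembly and regulation 0 of 5 (0.11). Of 7 carriers and channels of the mitochondrial membranes (median 0.16), 1 was called higher, Vdac3, an outer membrane channel, at 65.0, 43.9 and 52.1 FPKM in untreated and 106, 60.0 and 61.0 FPKM in tamoxifen samples (log2 fold change 0.46, limma adjusted p = 0.0418 with the block). Of 11 tested regulators of mitochondrial genes (median 0.04), 1 was called higher, Tfb1m, a methyltransferase of mitochondrial ribosomal RNA, at 15.8, 8.31 and 14.4 FPKM in untreated and 20.4, 14.4 and 18.3 FPKM in tamoxifen samples (log2 fold change 0.50, limma adjusted p = 0.0416 with the block). Nrf1, Gabpa and Yy1, the factors whose motifs were searched, had log2 fold changes of 0.01, 0.04 and 0.04. Ppargc1a, a coactivator of mitochondrial biogenesis, was at 0.0295 to 0.152 FPKM and was not tested. Surf1 and Sco2, both needed to assemble complex IV, and Ttc19, of complex III assembly, were listed at 0 in all 6 samples, which in tables without counts can be a failed estimate.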

How the data were processed

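Directional paired-end libraries were made from polyA+ RNA. The authors aligned reads to mm9 with TopHat2 and obtained values with cuffdiff 2.1.1 on refGene models. The deposited tables hold 1 FPKM per gene row with a confidence interval and a status (23874 rows per sample). Their ChIP-seq samples were not analysed here. Rows were summed by gene name, and 6 gene names with a failed status were left out. Genes with at least 0.5 FPKM in at least 3 samples were compared on log2(FPKM + 0.1), which understates changes of low genes, with limma 3.58.1 in R 4.3.3 (eBayes with a trend, Benjamini-Hochberg, threshold 0.05). Shares were compared by exact permutation. The replicate numbers, taken from the labels, paired the samples: deviations from group means correlated at 0.506 to 0.605 between samples of the same number. Between others they correlated at -0.379 to -0.105. Deviations sum to 0 within a group, so negative values between others follow on average from the positive ones. Because of the correlations within numbers, a fit with the number as a block is given. Transcript lengths came from GENCODE on NCBIM37 (85 of the 88 genes and 83.6% of all), other summaries from Python 3.11.15, pandas 2.3.3, numpy 2.4.6 and scipy 1.17.1. Length-bin and level-bin centring subtract, in each sample, the median of tested genes in the same decile of length or level. The limma fit was tested on simulated data.

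Members and lists were chosen with earlier results of these data known. Named genes were those called, a set of core, subunit c and restricted-isoform genes, the highest and lowest of each complex, and genes of the name pattern that encode no subunit, while others were chosen after their values were seen. The values of 1 named gene are not reported here. The authors describe biological triplicates.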

Additional observations from a re-analysis of the deposited data

How the results depend on the processing

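The 30 alternatives gave 0 genes called lower throughout. They gave 0 called higher in every fit without the replicate block (at an unadjusted p under 0.05 the main fit had 0), and 3 with the block alone, with TPM, with TPM computed without loci under 300 bp, with quantile normalisation and with level-bin centring. With the block and length-bin centring 6 were called, adding Atp5a1, Atp5g1, Uqcrc2 and Uqcrc1, while Ndufaf6 had no length. With the block and interval midpoints 4 were called, adding Ndufv2 (limma adjusted p = 0.0428). Level-bin centring and interval midpoints were chosen after seeing the data. Leaving out replicates gave 0 to 3 called higher, and median log2 fold changes of -0.10 to 0.34 over all 84 genes, -0.10 to 0.32 for complex I, 0.056 to 0.42 for its assembly factors, -0.017 to 0.39 for complex III, -0.22 to 0.20 for complex IV and -0.068 to 0.37 for the ATP synthase. For the share of Atp5g3, with a difference of 0.0641 percentage points, they gave -0.890 to 1.04, reversing it without untreated replicate 1, untreated replicate 3 or tamoxifen replicate 2 (and with interval midpoints, -0.284), for Atp5g1 0.941 to 2.33 and for Atp5g2 -2.57 to -0.261. The cause was not tested. Scaling to TPM moved the median of all tested genes from -0.02 to 0.08 and that of the 84 genes to 0.25, and TPM without loci under 300 bp to -0.11 and 0.06. Of the 22 named genes followed through the alternatives, 10 changed sign in at least 1, in none of a called value. In the companion lists the block added the calls of Nubpl, Ecsit, Vdac3 and Tfb1m. With 3 samples a group, no fragment totals and replicate 1 apart, only 3 of the 84 intervals lay within a 1.5-fold change without the block.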
